A study of Mus musculus with 4 samples.

Results

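The 5 genes described here are Irgm1, an immunity-related GTPase (IRG), and Gbp2, Gbp3, Gbp5 and Gbp7, guanylate-binding proteins (GBP), out of 21883 protein-coding genes placed on the mouse chromosomes. They were chosen by name with their IRF2 peaks already known, so their peak values are a description and carry no test. The study mapped IRF2 by chromatin immunoprecipitation and sequencing (ChIP-seq) in small-intestinal stem cells of mice whose Lgr5 gene carries an EGFP-Ires-CreERT2 cassette. There are 4 samples: 2 anti-IRF2 libraries, called Takara and Tokyo after their titles, and 2 input libraries, which were not analysed here. All come from the same strain without a treatment named in the labels. The submitters mention 5 mice but do not tie animals to libraries, and nothing says that the libraries are separate pools. The cell type cannot be checked from peaks, which hold no expression: the stem cell markers Lgr5, Olfm4, Ascl2 and Smoc2 lacked a peak within 5000 bp in both libraries.

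IRGs and GBPs are GTPases that cells make after interferon exposure. They gather on vacuoles that hold parasites or bacteria, and GBPs also coat cytosolic bacteria and help to open the inflammasome route. Irgm1 belongs to the regulatory IRGs, which hold the effector IRGs in check on the cell's own membranes. In mice the GBPs lie in a cluster on chromosome 3 and another on chromosome 5, and most IRGs lie on chromosomes 11 and 18. IRF factors recognise repeats of GAAA with a short spacer, the core of the interferon-stimulated response element. IRF2 is known mainly as a competitor of IRF1 at such sites, though it can also activate genes.

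The promoters that carry the results are shown first. RefSeq (GRCm38.p6, the assembly behind mm10) gave promoter windows for all 5 genes, reaching from 250 bases before to 50 bases after a transcription start. The 250 bases before the start are printed for Irgm1 and Gbp2, the genes with a peak, 5′ to 3′ on the gene's own strand. Capitals mark the IRF repeat, defined here as GAAA, any 2 bases and GAAA again, on either strand.
Irgm1, minus strand, chr11:48871421-48871670: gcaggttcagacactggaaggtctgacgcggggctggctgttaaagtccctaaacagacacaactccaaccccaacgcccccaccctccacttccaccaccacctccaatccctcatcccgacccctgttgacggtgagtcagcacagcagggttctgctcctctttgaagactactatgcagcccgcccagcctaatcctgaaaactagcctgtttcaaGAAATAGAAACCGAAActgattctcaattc
Gbp2, plus strand, chr3:142620413-142620662: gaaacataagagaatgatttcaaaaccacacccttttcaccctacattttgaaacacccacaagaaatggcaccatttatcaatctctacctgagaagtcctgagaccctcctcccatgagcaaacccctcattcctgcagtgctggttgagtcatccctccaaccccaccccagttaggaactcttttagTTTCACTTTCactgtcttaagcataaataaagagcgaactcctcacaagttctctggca

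For the 3 listed genes without a peak, and for Gbp2b, the neighbour of Gbp2, the repeat is shown with 25 bases on each side so that it can be set beside those above. All 4 are on the plus strand of chromosome 3, and the GAAA units read on the opposite strand as TTTC. Capitals mark the repeat.
Gbp3, chr3:142559974-142560039: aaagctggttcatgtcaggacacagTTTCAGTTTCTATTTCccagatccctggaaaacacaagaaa
Gbp7, chr3:142530258-142530317: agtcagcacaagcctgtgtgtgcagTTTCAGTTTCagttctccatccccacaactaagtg
Gbp5, chr3:142496744-142496803: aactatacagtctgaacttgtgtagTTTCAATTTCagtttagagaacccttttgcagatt
Gbp2b, chr3:142594685-142594744: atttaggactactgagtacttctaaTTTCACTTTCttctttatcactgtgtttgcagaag

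In the Takara library, Irgm1 and Gbp2 carried an IRF2 peak at their start and Gbp3, Gbp5 and Gbp7 did not. A gene was counted as carrying a peak when the midpoint of a peak lay within 5000 bp of either gene end. That was so for 2 of the 5 genes in Takara, where 0.795% of all protein-coding genes carried one, and for 0 of 5 in Tokyo, where 0.804% did. The members were chosen with these peaks in view, so nothing is read from those shares.

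The Irgm1 peak lay at chr11:48870840-48871899 (mm10), was 1060 bp wide and covered the whole promoter window. Its midpoint fell 50 bp inside the gene from the high-coordinate end, which is the transcription start of this minus-strand gene. The deposited summit score, a whole number of unstated unit used only within its own list, was 28. That put it at rank 128 of 380, tied with 8 others in a group of 9. The Tokyo list had no peak nearer than 3.89 Mb, where a peak of score 13 stood beyond the same end of the gene.

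The Gbp2 peak lay at chr3:142620226-142620781 and was 556 bp wide, close to the Takara median of 524.5 bp. Its midpoint lay 159 bp before the start of the gene, outside the transcribed part. Its score was 21, below the Takara median of 22.5, at rank 205 of 380 in a tie of 25 peaks. The nearest Tokyo peak on chromosome 3 was 9.53 Mb away, with a score of 14. Takara scores ran from 13 to 169, and the Irgm1 score stood above that median and the Gbp2 score below it.

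**Figure D1:**
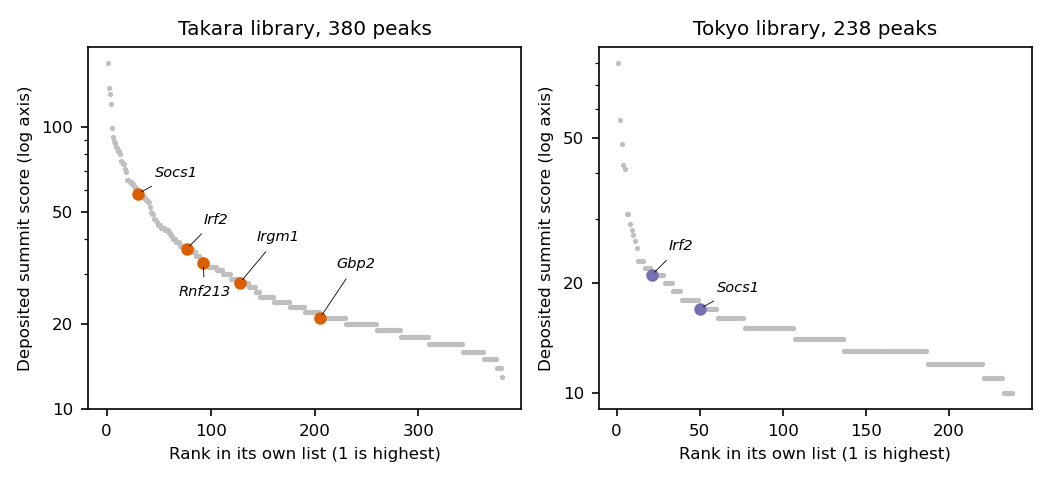
Deposited summit score (log axis) against rank in its own list for each peak of the Takara (left) and Tokyo (right) libraries. Grey points are all peaks, and coloured points are the nearest peak of each named gene that has one within 5000 bp. Irgm1 (28) and Gbp2 (21) lie below Socs1 (58), Irf2 (37) and Rnf213 (33) in Takara and have no peak in Tokyo, where Irf2 has 21 and Socs1 17.

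The other 3 listed genes had the Gbp2 peak as their nearest Takara peak. It lay 47.3 kb from the nearer end of Gbp3, 70.4 kb from Gbp7 and 98.2 kb from Gbp5. In Tokyo the nearest peak was 9.41 to 9.47 Mb away for these 3 genes. Gbp3, Gbp5 and Gbp7, GBP effectors encoded in the same cluster as Gbp2, thus had no peak of their own in either list.

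The whole cluster on chromosome 3 spans 141 kb and holds 5 GBP genes in the order Gbp5, Gbp7, Gbp3, Gbp2b and Gbp2, all on the plus strand. A single peak of either library fell in it. Gbp2b ends 1483 bp before Gbp2 starts, so its far end lies 1325 bp from the midpoint of the Gbp2 peak and Gbp2b also counts under the 5000 bp rule. The transcription start of Gbp2b is 25.7 kb from that midpoint, and measured from starts Gbp2b carried no peak. Beyond the cluster, the flanking genes Pdlim5 and Kyat3 had their nearest Takara peak at 225 and 80.5 kb, and in each case it was again the Gbp2 peak.

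The group on chromosome 11 that holds Irgm1 was alike in this respect. From Irgm1 to Ifi47, a further IRG, it spans 232 kb, and the Irgm1 peak was the only peak of either library in it. Its adjacent genes, Gm5431 and Trim7, lay 16.1 and 20.2 kb from that peak. Tgtp1 and Tgtp2, effector IRGs, lay 114 and 186 kb from it. A separate group on chromosome 11 holds Gm12250 (also called Irgb10), Igtp (Irgm3) and Irgm2, the latter pair being regulatory IRGs like Irgm1. Their nearest Takara peak was 221 to 252 kb away, and their nearest Tokyo peak 5.42 to 5.45 Mb away.

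**Figure D2:**
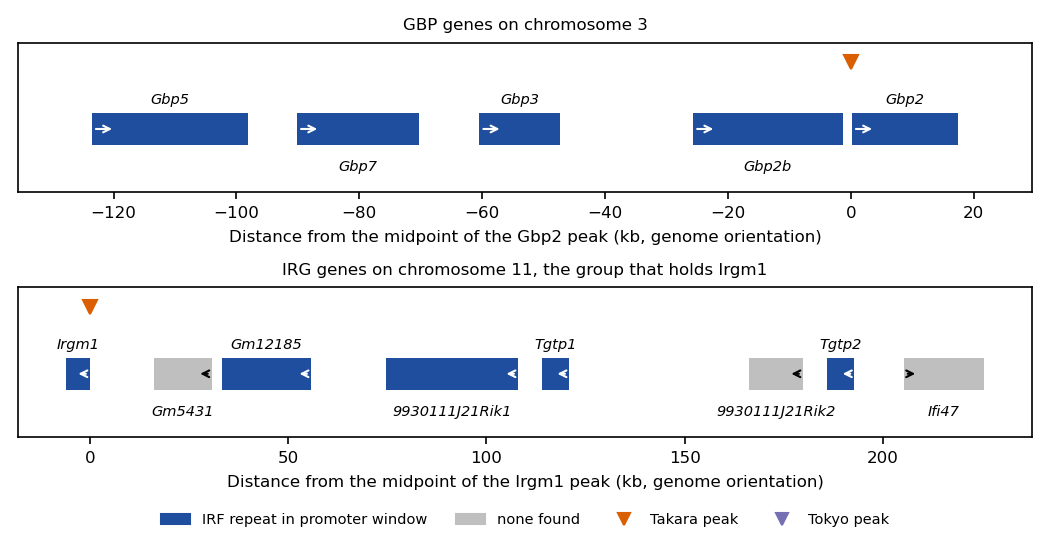
Gene bodies of the GBP cluster on chromosome 3 (top) and of the IRG group with Irgm1 on chromosome 11 (bottom), with distance in kb from the midpoint of the Gbp2 or Irgm1 peak on the horizontal axis. Bars are genes, blue where a promoter window holds the IRF repeat; arrows show the direction of transcription and triangles the peaks. Each map holds 1 Takara peak, at 0 kb, and no Tokyo peak.

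Taken as whole families, 3 of 25 protein-coding GBP, IRG and GVIN genes carried a Takara peak (0.795% of all protein-coding genes did) and 0 of 25 a Tokyo peak (0.804%). Peaks at these families were known when the lists were made, so nothing is read from those shares. The lists leave out Ifi47 and Gm12185, a predicted gene of the group with Irgm1, neither of which carried a peak: with both added, the counts were 3 of 27 and 0 of 27. The 3 are Irgm1, Gbp2 and, through its far end, Gbp2b. On chromosome 5, the 5 protein-coding GBP genes (Gbp4, Gbp6, Gbp8, Gbp9 and Gbp10) had their nearest Takara peak 1.11 to 1.30 Mb away and their nearest Tokyo peak 1.26 to 1.52 Mb away. Of the IRG list, 1 of 14 genes carried a Takara peak, or 1 of 16 with Ifi47 and Gm12185. Mx1 and Mx2, which encode dynamin-like antiviral GTPases, and Gbp11 are pseudogenes in the reference table and were not counted.

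All 5 listed genes held the IRF repeat in a promoter window, which 3.94% of 17491 protein-coding genes with a window in the table did. Positions are counted back from the start, the base before it being -1. The repeat began at -30 in Irgm1, -59 in Gbp2, -45 in Gbp3 (in the first of its 2 windows), -53 in Gbp7 and -165 in Gbp5. Irgm1 and Gbp3 held a run of 3 GAAA units with 2 bases between neighbours, which 0.16% of genes did. Of these, Irgm1 carried a peak and Gbp3 did not. Gbp2, the other gene with a peak, held 2 units. A match is only a description of the letters in the window, and the motifs overlap: every 3-unit run holds the IRF repeat.

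Across the families, 12 of the 15 genes with a window held the IRF repeat: all 5 GBP genes of chromosome 3 and 7 of 10 IRG genes. Over all protein-coding genes with a window the share was 3.94%. With Ifi47, which lacked it, and Gm12185, which held it, the count was 13 of 17. A Takara peak covered the window in 2 of those 12, Irgm1 and Gbp2. Over all genes with the repeat, 20 of 689 had a Takara peak over the window (2.90%). Irgm1 and Gbp2 were listed with their peaks known, so nothing is read from these shares. The 10 with the repeat and no peak over the window were Gbp2b, Gbp3, Gbp5, Gbp7, Irgm2, Igtp, Gm12250, Tgtp1, Tgtp2 and 9930111J21Rik1.

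**Figure D3:**
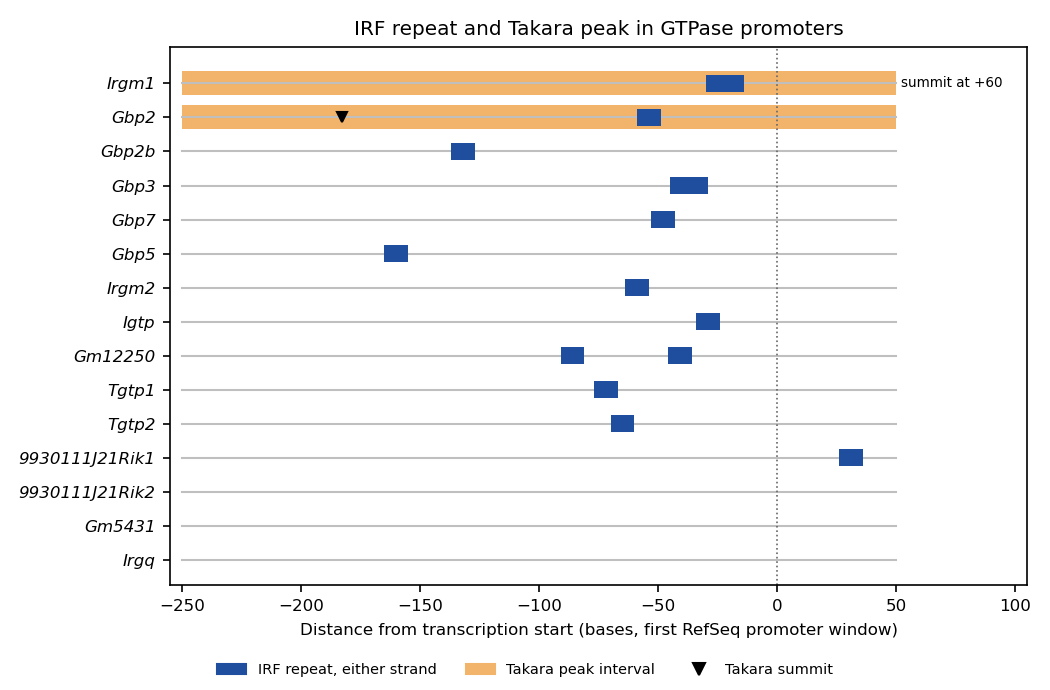
Promoter windows of 15 GBP and IRG genes, with distance from the transcription start in bases on the horizontal axis (the first RefSeq window for Gbp3). Blue boxes mark the IRF repeat on either strand, orange bands the Takara peak interval cut to the window and the black triangle its summit. Only Irgm1 and Gbp2 lie under a peak; the Gbp2 summit is 183 bases before the start and the Irgm1 summit 60 bases after it.

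Among the IRG promoters with the repeat and no peak, 4 are printed on their own strand with the IRF repeat in capitals, so that they can be set beside Irgm1 and beside each other.
Irgm2, plus strand, chr11:58214888-58214947: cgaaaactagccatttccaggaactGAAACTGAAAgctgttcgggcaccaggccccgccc
Igtp, plus strand, chr11:58199497-58199555: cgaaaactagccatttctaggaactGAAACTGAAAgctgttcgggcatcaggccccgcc
Tgtp1, minus strand, chr11:48992289-48992348: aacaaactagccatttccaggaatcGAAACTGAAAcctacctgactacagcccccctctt
Tgtp2, minus strand, chr11:49064248-49064307: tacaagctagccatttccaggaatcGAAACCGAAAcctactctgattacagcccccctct

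Some of these windows are near copies of each other. The windows of Tgtp2 and Gm12185 shared an identical run of 114 bases and those of Irgm2 and Igtp one of 61 bases. Irgm1 and Gbp2 shared at most 11 bases in a row with any of 12 other windows compared. The treatment of reads that fit several places is not stated in the labels, and its part in the missing peaks was not tested. For Gbp3 and Gbp7 the longest shared run was 13 bases, and for Gbp5 and Gbp2b 10 bases. These runs were sought only among the family windows compared, so they do not show whether reads fit other places in the genome.

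Counted over all promoters, peaks of both libraries lay more often over windows with the IRF repeat than over windows without it, although most windows with the repeat had none. This is a description without a test. In Takara, 20 of 689 genes with the repeat had a peak over the window (2.90%, 95% Wilson interval 1.89 to 4.44), against 37 of 16802 without it (0.220%, 0.160 to 0.303). Irgm1 and Gbp2 are 2 of those 20. In Tokyo the counts were 8 of 689 (1.16%, 0.589 to 2.27) and 65 of 16802 (0.387%, 0.304 to 0.493). For the 3-unit run, 5 of 28 genes had a Takara peak (17.9%, 7.88 to 35.6), with Irgm1 among the 5 and Gbp3 among the 23 others. Without the run it was 52 of 17463 (0.298%, 0.227 to 0.390). In Tokyo 1 of 28 genes with the run had a peak (3.57%, 0.633 to 17.7), against 72 of 17463 without it (0.412%, 0.328 to 0.519). The intervals cover counting error over genes within 1 library, and neighbouring genes can share a window or a peak.

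**Figure D4:**
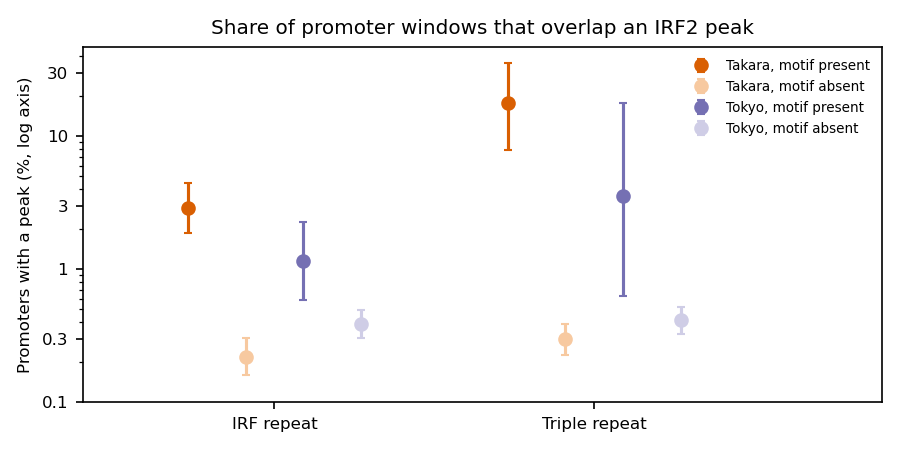
Percent of promoter windows overlapped by a peak (log axis) for genes with and without each motif, with 95% Wilson intervals as bars. In Takara the share with the IRF repeat (2.90%) stands above the share without it (0.220%). The Takara share with the 3-unit run is 17.9%, against 0.298% without it. In Tokyo the shares are 1.16% and 0.387% for the IRF repeat and 3.57% and 0.412% for the 3-unit run.

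The bases between the GAAA units differed between the GTPase genes. Written on the GAAA strand, Gbp2 and Gbp2b held GAAAGTGAAA. Gbp3 and Gbp7 held GAAACTGAAA, as did Irgm2, Igtp, Tgtp1 and Gm12250, while Gbp5 held GAAATTGAAA. Irgm1 held GAAATAGAAA and GAAACCGAAA, overlapping in its 3-unit run, and Gbp3 also held GAAATAGAAA.

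Promoters with these forms were overlapped by Takara peaks at different rates, a count made after the sequences were seen, in which a gene with several repeats enters under each form. With GAAAGTGAAA, 10 of 65 genes had a peak (15.4%, interval 8.58 to 26.1), and 9 of 62 did when the GTPase genes, here with Ifi47 and Gm12185 counted among them, were left out. With GAAACCGAAA it was 4 of 16 (25%, 10.2 to 49.5), or 3 of 14 without the GTPase genes. With GAAACTGAAA it was 1 of 50 (2%, 0.354 to 10.5), or 1 of 44 without them. With GAAATTGAAA it was 0 of 23, which allows up to 14.3% by the same interval. With GAAATAGAAA, held by Irgm1 and Gbp3, it was 2 of 34 (5.88%, 1.63 to 19.1), or 1 of 31 without the GTPase genes. GAAACCGAAA and GAAAGTGAAA thus had the 2 highest shares among the 16 possible spacers in Takara. Their intervals overlap those of GAAACTGAAA, GAAATTGAAA and GAAATAGAAA. Forms that no GTPase gene held went both ways. The interval of GAAAAAGAAA, 0 of 104, lay below both (up to 3.56%), and that of GAAAGCGAAA, 1 of 16, overlapped both (1.11 to 28.3). Of the genes with a peak, Ctso, Irgm1 and Socs1 under GAAACCGAAA and Trim26 under GAAAGTGAAA also held the 3-unit run. Spacer and run length are thus mixed in these shares, and neither was tested apart from the other. Rbm43, which had a peak and a 3-unit run, held GAAACTGAAA and GAAATAGAAA, the same forms as Gbp3. Gbp2b, with GAAAGTGAAA, and Tgtp2, with GAAACCGAAA, had no peak over their windows. Gm6034 and H2-T22, counted among the 10 genes with GAAAGTGAAA and a peak, lay under the same peak, though the interval treats them as separate. In Tokyo the counts were 3 of 65 for GAAAGTGAAA, 2 of 16 for GAAACCGAAA, 1 of 50 for GAAACTGAAA, 0 of 23 for GAAATTGAAA and 0 of 34 for GAAATAGAAA.

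At Irgm1 the summit lay 79.5 bp from the centre of the nearer IRF repeat, and at Gbp2 128.5 bp. Over the 20 genes with a repeat and a Takara peak in the window the median was 87.5 bp (interquartile range 38.25 to 132), and most summits stand on a grid of 16 bp. The 19 peaks behind those 20 genes had a median score of 31 (range 17 to 88), so Irgm1 (28) and Gbp2 (21) were among the 7 at or below 28. None of those 7 had a Tokyo peak over the same window; the lowest Takara score with one was 37. Among all 102 Takara peaks scored from 21 to 28, 8 overlapped a Tokyo peak (7.84%, 4.03 to 14.7), against 55 of 380 overall (14.5%, 11.3 to 18.4). Read depth is unknown, so a gene without a call in Tokyo is not shown to be free of IRF2.

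Of 15 genes listed for interferon signalling and the response to it, Nlrc5 among them, 2 carried a peak in both libraries, Socs1 and Irf2. No other carried one within 5000 bp in either library. Over all protein-coding genes 0.795% carried a Takara peak, 0.804% a Tokyo peak and 0.165% both. Socs1, which restrains JAK signalling, had a Takara score of 58 with the midpoint 117 bp from its start end, and a Tokyo score of 17 at 269 bp. Irf2 itself had 37 at 144 bp and 21 at 346 bp. Socs1 also held a 3-unit run, GAAAGAGAAACCGAAA, whose last 10 bases read the same as those of Irgm1, and its summit lay 17.5 bp from the nearer repeat.

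Irf1, the activator that IRF2 competes with, had its nearest Takara peak at 81 kb and its nearest Tokyo peak at 1.01 Mb. Irf8 had none nearer than 14.8 Mb in Takara and 250 kb in Tokyo. For Irf9 the nearest Takara peak was 13.3 kb away, and the nearest Tokyo peak 1.28 Mb. The receptor genes Ifngr1, Ifngr2, Ifnar1 and Ifnar2 lacked a peak within 5000 bp in both lists.

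Of 14 genes that act with the GTPases on vacuoles and bacteria, 1 carried a Takara peak and 0 a Tokyo peak, against 0.795% and 0.804% of all protein-coding genes. This was Rnf213, a ubiquitin ligase that marks bacteria and parasite vacuoles, with a score of 33 and a midpoint 528 bp inside its low-coordinate end. A second Takara peak, of score 28, lay 3385 bp inside the same end. Casp4, the caspase that GBPs help to activate on bacterial lipopolysaccharide, and the autophagy genes Atg3, Atg5, Atg7 and Atg16l1, which place the GTPases on vacuoles, had no peak within 5000 bp. Trim21 held a 3-unit run in its promoter window, as Irgm1 and Gbp3 did, and carried no peak.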

How the data were processed

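IRF2 ChIP-seq was deposited for 2 libraries of mouse intestinal stem cells. Per the submitters' processing notes, reads were aligned with BWA 0.7.12 to mm10 and peaks called with MACS; for its version, thresholds and filters, and for read depth, the sources hold no statement. Each library has, per the file headers, a summit track and an interval track; the deposited score of each summit is a whole number of unstated unit. The Tokyo file also held a track named rep2, whose 380 summits and intervals equal those of Takara, and 562 merged regions; neither was used. Midpoints were compared with gene ends of the RefSeq table for GRCm38.p6, and promoter windows were searched on both strands, with Python 3.11.15, pandas 2.3.3 and scipy 1.17.1. Of 31 family symbols 28 matched, 25 of them protein-coding, and 15 had a promoter window. Distance and motif searches were tested on simulated data. Named genes are the 5 listed genes and their neighbours, family members with a peak, pathway genes with a peak, and Irf1, Irf8 and Irf9; others are named as examples chosen after their values were seen. The members and lists were chosen with earlier results of these data known. No test was run, since the libraries form 1 group and the members were chosen by name with their peaks known. One gene of the interferon signalling list and one planned promoter motif are not reported here. No genome sequence was used, so letters under the peaks outside the promoter windows were not searched.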

Additional observations from a re-analysis of the deposited data

How the results depend on the processing

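The count of 2 listed genes with a Takara peak held with limits of 1000 and 25000 bp, with summits or peak edges, with starts in place of both ends and with nearest genes only. With the higher-scored 50% of the list it was 1, since Gbp2 dropped out, and the family count fell from 3 to 1. That family count was 2 within 1000 bp, from starts and with nearest genes only, where Gbp2b no longer counts, and 4 within 25000 bp. Tokyo stayed at 0 in the settings run. Leaving out a library gave 0 to 2 listed genes and 2 to 3 of 29 pathway genes, with the lower values (0 and 2) from Tokyo by itself. The pathway count was 3 within 1000 bp and 4 within 25000 bp, where Irf9 also counts. The motif count of 5 was 2 with the 3-unit run. Over all annotated genes the background was 0.561% in Takara and 0.509% in Tokyo. From starts, the nearest Takara peak was 60148 bp from Gbp3, 90168 bp from Gbp7 and 123570 bp from Gbp5, as these genes have their far end toward Gbp2. No paired analysis was run: both IRF2 libraries belong to 1 group, and the 2 input libraries, numbered as replicates alongside them, were not used here. Depth is unknown, so what it limits has no number.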

Other observations

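Among the 28 genes whose promoter window held the 3-unit run, the 5 with a Takara peak were Irgm1, Socs1, Trim26, Rbm43 and Ctso, with scores of 28, 58, 38, 30 and 29. Only Socs1 also had a Tokyo peak over the window. The 23 without a peak included Gbp3 and other interferon-induced genes: Isg15, a ubiquitin-like modifier, Bst2, which tethers virions, the oligoadenylate synthetase genes Oas1a and Oas1g, and the apolipoprotein L genes Apol9a and Apol9b. The 23 also included genes of other kinds, such as Olfr1499, Kcnab1, Vhl and Washc3. All these genes are named after their values were seen, and no test was run.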
